A study of Mus musculus with 10 samples.

Results

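The unfolded protein response and the ATF4 pathway were followed in subcutaneous white fat through 37 listed genes, which encode chaperones of the endoplasmic reticulum (ER), the sensors of ER stress, the machinery of ER-associated degradation and targets of the transcription factor ATF4. The list was drawn up by function, with earlier results of these mice known. Of the 37 genes, 35 were measured, among 19659 genes in all; the probe sets naming Dnajc3 and Sec61b held no value on any array. Each of 10 one-colour arrays measured RNA of the inguinal-femoral fat of 1 untreated, chow-fed female F2 mouse aged 14 weeks. The mice came from a cross of the Fat line with the congenic V line and were homozygous at the obesity locus Fob3a of chromosome 15. The Fat-line allele was carried by 5 mice (FF) and the V-line allele by 5 (VV), also called the lean-line allele in the labels. The V line was made from a recombinant animal by repeated backcrossing to the Fat line, so that both genotypes carry mostly Fat-line background outside the introgressed segment, and each array came from a separate numbered animal. In bulk fat, fewer cells of a type and less RNA per cell cannot be told apart.

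ER chaperones fold newly made secreted and membrane proteins, and their supply is matched to demand by a set of membrane sensors. IRE1 (Ern1) splices the mRNA of Xbp1, PERK (Eif2ak3) slows translation and thereby favours that of Atf4, and ATF6 is cut to release a transcription factor. XBP1 and ATF6 raise chaperones and degradation genes, while ATF4 raises genes of amino acid supply and stress signalling. Fat cells secrete adipokines and synthesise lipid at the ER, and the response is known to be active in fat of obese animals. These arrays read total mRNA of a gene, so neither Xbp1 splicing nor the phosphorylation of a sensor is seen in the values.

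The DNA elements through which these factors act are shown first, because several of the genes the results turn on carry them, among them the 1 member called between genotypes. RefSeq promoters on GRCm38.p6, from 250 bases before to 50 bases after a gene's start, were held for 32 of the 37 genes; Derl1, Atf6, Hyou1, Manf and Ppp1r15b were not among them. Each was searched on both strands for the ER stress response element (ERSE, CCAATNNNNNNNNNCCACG), for ERSE-II (ATTGG and CCACG with 1 free base between them) and for the ATF4 element CARE (TGATGNAA); no 2 of the matches in the members overlapped.

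ERSE occurred in 9 of the 32 genes, 28.1%, against 0.137% of all 27025 genes with a promoter (37 genes in all). ERSE-II occurred in Dnajb11 and Herpud1 (6.25% of the members against 0.0444% of all genes). CARE, a shorter motif, occurred in Trib3, Chac1, Asns and Herpud1 (12.5% against 4.51%). The members were listed as known genes of these responses, so the higher shares describe the list and are not an independent test of it. A match describes the letters in this window and is not evidence of binding.

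The ERSE matches are given in the direction of the motif, 5′ to 3′, with the matched letters in capitals and the free spacer of 9 bases in lower case; the spacer differs from gene to gene.
Hspa5: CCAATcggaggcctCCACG
Syvn1: CCAATcggcggtagCCACG
Creld2: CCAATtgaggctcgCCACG
Calr: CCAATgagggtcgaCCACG
Canx: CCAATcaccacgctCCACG
Pdia6: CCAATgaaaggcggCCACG
Derl3: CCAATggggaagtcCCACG
Dnajc3: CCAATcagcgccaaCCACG
Hsp90b1, first match: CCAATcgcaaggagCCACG
Hsp90b1, second match: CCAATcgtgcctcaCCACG

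The ERSE-II and CARE matches are written the same way.
Herpud1, ERSE-II: ATTGGgCCACG
Dnajb11, ERSE-II: ATTGGcCCACG
Chac1, CARE: TGATGcAA
Herpud1, CARE: TGATGcAA
Trib3, CARE: TGATGtAA
Asns, CARE: TGATGaAA

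The 250 bases before the start of 4 genes show where the element lies, with the matched ERSE letters in capitals: Syvn1, the member that differed between genotypes, Hspa5 and Creld2, which stood out in 1 FF mouse, and Hsp90b1, which holds 2 matches. All are written 5′ to 3′ on the gene's own strand.
Syvn1 (chr19:6046326-6046575, plus strand): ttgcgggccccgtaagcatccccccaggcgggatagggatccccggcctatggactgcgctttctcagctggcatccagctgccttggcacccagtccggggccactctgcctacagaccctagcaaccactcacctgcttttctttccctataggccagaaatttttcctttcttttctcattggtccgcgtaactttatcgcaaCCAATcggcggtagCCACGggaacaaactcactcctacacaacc
Hspa5 (chr2:34771840-34772089, plus strand): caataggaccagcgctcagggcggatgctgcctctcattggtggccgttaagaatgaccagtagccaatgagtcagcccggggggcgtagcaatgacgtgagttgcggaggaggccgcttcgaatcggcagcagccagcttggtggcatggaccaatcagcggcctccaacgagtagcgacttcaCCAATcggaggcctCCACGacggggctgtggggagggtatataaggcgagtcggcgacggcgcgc
Creld2 (chr15:88819396-88819645, plus strand): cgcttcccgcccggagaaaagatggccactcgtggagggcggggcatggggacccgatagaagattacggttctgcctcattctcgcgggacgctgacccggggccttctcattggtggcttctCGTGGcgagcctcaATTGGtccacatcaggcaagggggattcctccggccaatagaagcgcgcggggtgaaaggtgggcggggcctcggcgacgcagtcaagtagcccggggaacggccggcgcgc
Hsp90b1 (chr10:86705445-86705694, minus strand): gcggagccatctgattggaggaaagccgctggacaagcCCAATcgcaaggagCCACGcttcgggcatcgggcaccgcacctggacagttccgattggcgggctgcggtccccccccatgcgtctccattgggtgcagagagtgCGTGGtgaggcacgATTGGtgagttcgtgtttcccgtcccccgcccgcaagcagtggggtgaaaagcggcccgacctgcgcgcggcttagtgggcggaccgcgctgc

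In Syvn1 the match begins 44 bases before the start, and in Hspa5 it begins 65 bases before it. In Creld2 the element lies on the opposite strand and its leftmost base is 126 bases before the start. Of the 8 ERSE genes with a value, 2 had a positive and 6 a negative difference between FF and VV, from -0.23 to 0.33 log2 units, so carriers of the element lay on both sides.

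Values were log2 intensities normalised by the authors, between 3.56 and 14.2, with array medians from 7.15 to 7.17 in FF and from 7.18 to 7.21 in VV. Deptor, the mTOR inhibitor named in the title of the series, was higher in FF by 0.55, and Ucp1, the uncoupling protein of thermogenic fat, by 3.96. The tissue was fat by its markers: the 10 adipocyte genes listed averaged between 12.77 and 12.97 in every mouse, and the least abundant of them stood at percentile 94.1 of all genes. VV replicate 1 was high in liver genes, with a mean of 11.80 over 9 of them against at most 9.31 elsewhere, and its median correlation with the other arrays was 0.977 against 0.991 or more for each of the other 9 mice. FF replicate 1 was high in muscle genes, at 9.58 over 8 of them against at most 7.85 elsewhere. The precision of every difference is limited by the number of arrays.

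Between genotypes, 1 of the 35 measured genes passed an adjusted p of 0.05 over all genes, Syvn1, which rose in FF, and none fell. That is 2.86% of the members, against 0.753% of all genes called (0.621% higher and 0.132% lower in FF). At an unadjusted p under 0.05 there were 5 members higher and 7 lower in FF, 34.3% of the members in all, against 16.4% of all genes (10.2% higher and 6.18% lower). FF and VV values were fully separate for 7 members, 4 higher and 3 lower in FF, or 20.0% of the members, against 4.70% of all genes (3.36% higher and 1.34% lower in FF). All members except Trib3 lay above the median intensity of all genes. When genes below that median were left out, more genes were called although fewer were tested. The shares of all genes, here and below, are thus not matched to the members in intensity, and a matched background was not tested. Over the 35 members the median difference, FF minus VV, was 0.02 log2 units, and over all genes it was 0.00. The members split by role: folding enzymes had mostly negative differences, and genes listed as ATF4 outputs and most degradation genes had positive ones. The list of ATF4 outputs includes Ppp1r15b, which is constitutive and so not strictly an output.

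**Figure D1:**
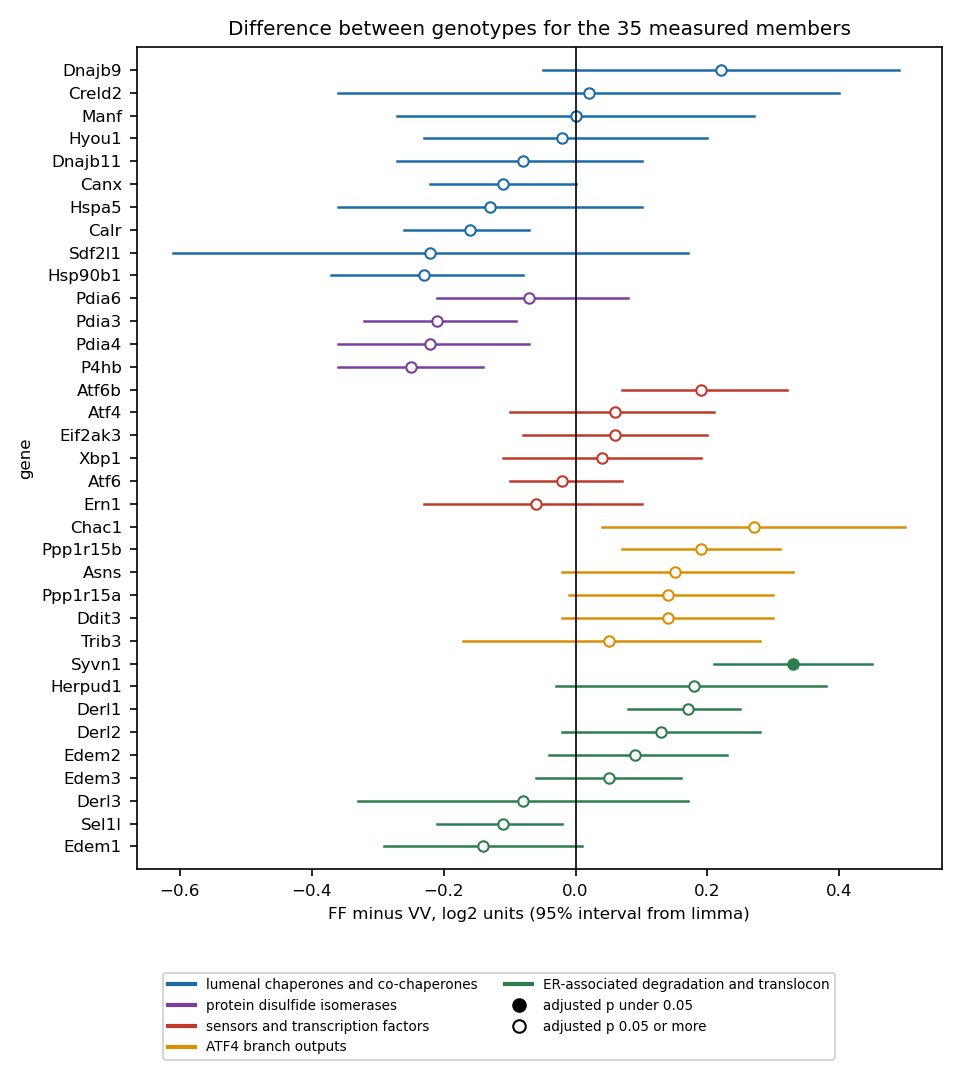
Difference between FF and VV mice in log2 units for the 35 measured members, with the 95% interval from limma, coloured by role; a filled point marks an adjusted p under 0.05. The filled point is Syvn1 at 0.33. The 4 disulfide isomerases, from -0.25 to -0.07, all lie left of 0. The 6 genes listed as ATF4 branch outputs, from 0.05 to 0.27, all lie right of it.

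ER-associated degradation draws misfolded proteins back to the cytosol, where they are tagged with ubiquitin and destroyed. Syvn1 encodes HRD1, the membrane ubiquitin ligase at the centre of this machine. Its log2 intensity was 10.08, 10.09, 10.01, 9.85 and 9.89 in FF replicates 1 to 5 and 9.61, 9.66, 9.66, 9.72 and 9.64 in VV replicates 1 to 5. Every FF mouse lay above every VV mouse. The means were 9.98 ± 0.11 and 9.66 ± 0.04 (SD, n = 5 each), a difference of 0.33 ± 0.05 (SE) and a 1.25-fold higher level in FF, with a 95% interval from 1.15 to 1.36. In limma the adjusted p was 0.0352 and Syvn1 stood at rank 49 by p among all genes. In a two-sided exact permutation test over 252 assignments p was 0.00794, the lowest value this design can reach. Every gene whose groups do not overlap takes that value, unadjusted, so it restates the separation and adds no second support. The direction held whichever mouse was left out (0.30 to 0.36). The call depended on single mice. It held on removal of FF3, FF4 or VV1 (limma adjusted p = 0.0334 to 0.0468; the letters give the genotype and the digit the replicate), and 0 members were called on removal of FF1, FF2, FF5 or any of VV2 to VV5 (0.0563 to 0.0951, with at least 9 members at an unadjusted p under 0.05). It was also lost after quantile normalisation (0.0587) and, chosen after seeing the data, on removal of VV1 and VV2 together (0.125), with differences of 0.29 and 0.31.

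Derl1 encodes derlin-1, a membrane protein of the channel through which degradation substrates leave the ER. It lies on chromosome 15, with 7 protein-coding genes between it and Deptor in the RefSeq order. It read 11.36, 11.36, 11.30, 11.31 and 11.23 in the FF mice and 11.14, 11.11, 11.14, 11.14 and 11.19 in the VV mice, again without overlap. The difference was 0.17 ± 0.04 (SE), 1.12-fold with a 95% interval from 1.05 to 1.19, and it did not pass over all genes (limma adjusted p = 0.0766). Of the 745 genes tested on chromosome 15, 0.805% were called and 5.23% did not overlap, against 0.753% and 4.70% of all genes. These shares cover the whole chromosome and do not describe the segment around Fob3a and Deptor. The part of that segment in the Derl1 difference was not tested. The other members on this chromosome, Atf4 and Creld2, differed by 0.06 and 0.02.

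The remaining degradation genes overlapped between genotypes. Herpud1, an ER membrane protein that organises the HRD1 complex, differed by 0.18, and Derl2, another derlin, by 0.13. Sel1l, the partner that stabilises HRD1, differed by -0.11 (limma adjusted p = 0.230), opposite in sign to Syvn1. Of the mannosidase-like EDEM proteins, which mark glycoproteins for degradation, Edem1 differed by -0.14, Edem2 by 0.09 and Edem3 by 0.05, and Derl3, the inducible derlin, by -0.08. In this role 6 of 9 measured genes had a positive and 3 a negative difference, with a median of 0.09; none of the 9 changed sign after quantile normalisation or after centring arrays on their median, which raises all differences alike.

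Protein disulfide isomerases form and rearrange disulfide bonds in new proteins, and all 4 measured had a negative difference, with a median of -0.21, while none passed the test. P4hb, the main isomerase and a subunit of the collagen-modifying prolyl 4-hydroxylase, read 11.11, 11.07, 11.04, 11.09 and 11.13 in the FF mice and 11.41, 11.32, 11.27, 11.44 and 11.23 in the VV mice. The FF values lay close together and all below the VV values. The difference was -0.25 ± 0.05 (SE), 1.19-fold higher in VV, at a limma adjusted p of 0.0508. Pdia3, the isomerase that works on glycoproteins with calnexin and calreticulin, read 11.66, 11.78, 11.83, 11.89 and 11.72 in FF and 11.94, 12.08, 11.94, 12.00 and 11.94 in VV, also without overlap, with a difference of -0.21 ± 0.05 (SE; adjusted p = 0.0902). Pdia4 differed by -0.22 (adjusted p = 0.135) on its brighter probe set and by 0.00 on another, dim one at 5.81 in both groups, and Pdia6 differed by -0.07. P4hb passed in 6 other settings of the fit (limma adjusted p = 0.0320 to 0.0498) and in none that removed a single mouse (0.0562 to 0.127). It did not pass in 4 further settings, quantile normalisation and the replicate block among them (limma adjusted p = 0.0548 to 0.174).

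Among the lumenal chaperones none of 10 measured genes passed, and 7 had a negative difference. Calr, the lectin chaperone calreticulin, read 11.79, 11.83, 11.91, 11.97 and 11.92 in FF and 12.03, 12.07, 12.01, 12.09 and 12.03 in VV. Its groups did not overlap, at a difference of -0.16 ± 0.04 (SE; limma adjusted p = 0.103). Hsp90b1, the ER form of HSP90 (GRP94), read 11.13, 11.13, 11.27, 11.45 and 11.20 in FF and 11.46, 11.49, 11.37, 11.55 and 11.44 in VV. Here FF replicate 4 reached into the VV range, and the difference was -0.23 ± 0.07 (SE; adjusted p = 0.115). Canx, the membrane lectin chaperone calnexin, differed by -0.11 (adjusted p = 0.297). Hspa5, which encodes BiP, the HSP70 of the ER and its most used stress marker, read 11.86, 11.84, 11.72, 12.32 and 11.85 in FF and 12.01, 12.18, 11.89, 12.04 and 12.13 in VV. Of the FF mice 4 lay below every VV mouse, and FF replicate 4 lay above every other mouse. The difference was -0.13, with a 95% interval from -0.36 to 0.10 (adjusted p = 0.579), and without FF replicate 4 it was -0.23 (adjusted p = 0.145). With quantile normalisation 9 of the 10 chaperones had a negative difference, and with arrays centred on their median 6 had one, Creld2 and Manf turning negative in the first and Hyou1 positive in the second; all 4 isomerases kept their sign in both.

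Marker levels of other cells are given beside these folding genes as mean log2 intensity per mouse. Of the lists in this paragraph, leukocytes and macrophages separated the genotypes without overlap, and the others overlapped. The 8 leukocyte and macrophage genes lay at 9.33 to 9.67 in FF and 9.85 to 10.19 in VV, with 1 of them past the test, lower in FF. The 8 genes of B and plasma cells lay at 7.43 to 8.54 in FF and 8.36 to 8.80 in VV, and 8 of fibroblasts and progenitors at 10.73 to 11.35 and 11.00 to 11.29. The 9 liver genes lay at 8.23 to 8.53 in FF and 8.17 to 11.80 in VV. Of 8 skeletal muscle genes the level ran from 6.98 to 9.58 in FF and from 7.07 to 7.85 in VV. Mammary epithelium, with 8 genes, ran from 6.54 to 6.70 and from 6.63 to 6.73, and exocrine pancreas, with 6 genes, from 5.95 to 6.17 and from 6.05 to 6.12. No member of these last 4 lists, the B and plasma cell list or the fibroblast list passed the test. The part of these cells in the differences of the folding genes was not tested. Without the mice with the most liver RNA, VV replicates 1 and 2, the differences of P4hb, Pdia3, Calr and Hsp90b1 were -0.23, -0.19, -0.16 and -0.22.

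**Figure D2:**
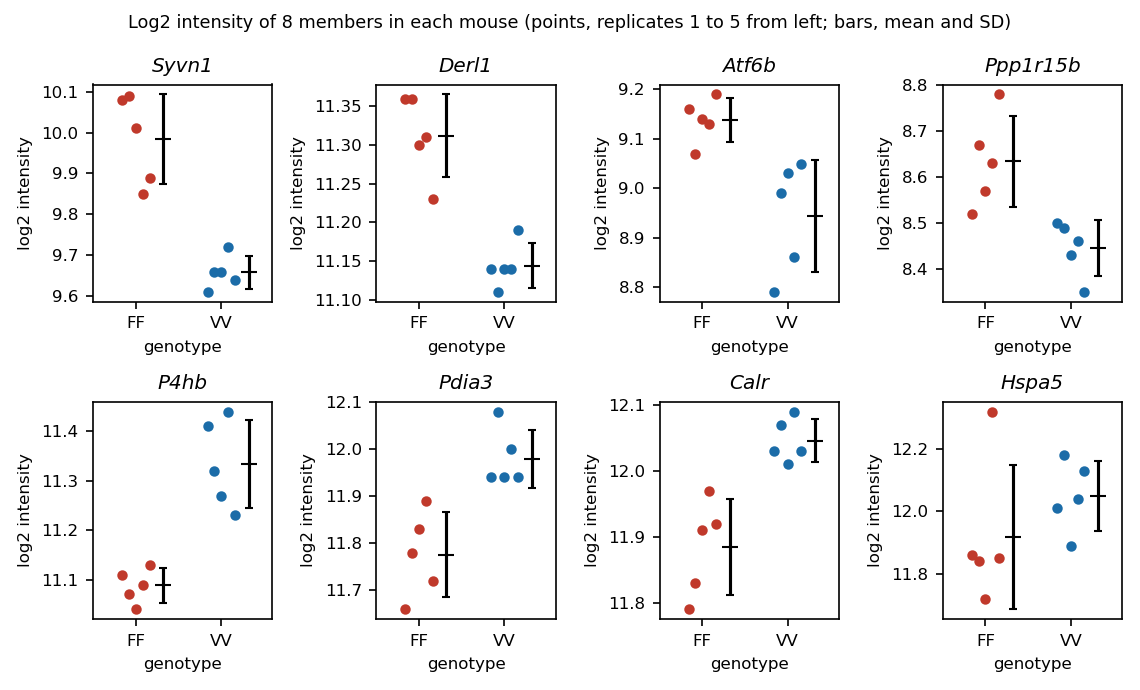
Log2 intensity of 8 members in each of the 10 mice (points, replicates 1 to 5 from left to right; bars, mean and SD of 5 mice). Syvn1, Derl1, Atf6b and Ppp1r15b lie higher and P4hb, Pdia3 and Calr lower in FF without overlap, whereas in Hspa5 FF replicate 4, at 12.32, lies above all other mice; each axis has its own range.

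The sensors and their transcription factors showed no called difference. Ern1 read 8.76, 8.92, 9.17, 8.98 and 8.91 in FF and 8.96, 8.96, 8.95, 9.18 and 9.01 in VV, and differed by -0.06 with a 95% interval from -0.23 to 0.10. Eif2ak3 read 8.73, 8.92, 8.88, 8.96 and 8.92 in FF and 8.68, 8.98, 8.77, 8.80 and 8.85 in VV, a difference of 0.06 (-0.08 to 0.20). The Eif2ak3 ranges nearly coincided, whereas for Ern1 the FF values spread further, with 3 FF mice below the lowest VV mouse. Atf6 read 10.34, 10.39, 10.35, 10.35 and 10.31 in FF and 10.33, 10.36, 10.34, 10.45 and 10.37 in VV, a difference of -0.02 (-0.10 to 0.07).

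Its paralog Atf6b, which encodes a weaker activator of the same elements, read 9.16, 9.07, 9.14, 9.13 and 9.19 in FF and 8.79, 8.99, 9.03, 8.86 and 9.05 in VV. The groups did not overlap, although the gap between the lowest FF and the highest VV mouse was narrow. The difference was 0.19 ± 0.06 (SE), 1.14-fold, at a limma adjusted p of 0.124, and it was 0.15 without VV replicate 1. Xbp1 read 12.17, 12.00, 12.17, 12.37 and 12.34 in FF and 12.14, 12.22, 12.15, 12.14 and 12.20 in VV, a difference of 0.04 (95% interval from -0.11 to 0.19). Its VV values were tight and its FF values spread to both sides of them. Atf4 read 8.19, 8.20, 8.18, 8.28 and 8.44 in FF and 8.18, 8.38, 8.23, 8.17 and 8.03 in VV, a difference of 0.06 (-0.10 to 0.21).

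All 6 genes listed as ATF4 branch outputs had positive differences, with a median of 0.15, and none passed the test. One of them, Ppp1r15b, is constitutive and so not strictly an output. The 6 signs were the same after quantile normalisation. Centring on the array median raises the differences of all genes, by 0.04 at the median, so it could not turn these signs. Ppp1r15b, the constitutive partner that directs a phosphatase to eIF2alpha and so restores translation, read 8.52, 8.67, 8.57, 8.63 and 8.78 in FF and 8.50, 8.49, 8.43, 8.46 and 8.35 in VV. It did not overlap between groups, and it differed by 0.19 ± 0.06 (SE; limma adjusted p = 0.120) and by 0.17 on another probe set. Ppp1r15a, the inducible partner (GADD34), differed by 0.14. Chac1, which breaks down glutathione, read 9.15, 8.55, 8.81, 9.04 and 8.82 in FF and 8.62, 8.61, 8.74, 8.42 and 8.64 in VV. In 4 of the 5 FF mice it lay above every VV mouse, and it differed by 0.27 ± 0.10 (SE; adjusted p = 0.225). Ddit3, the stress transcription factor CHOP, read 8.01, 8.23, 7.92, 8.26 and 8.07 in FF and 7.81, 8.01, 8.02, 7.92 and 8.01 in VV, and differed by 0.14 (adjusted p = 0.366). Trib3, a pseudokinase that binds Akt, was the only member below the median intensity of all genes; it read 7.26, 7.07, 7.08, 6.99 and 7.40 in FF and 6.98, 7.18, 7.38, 7.12 and 6.88 in VV, with full overlap and a difference of 0.05. Its sign turned on removal of FF5, of VV5, or of FF1 and VV1 together. Asns, asparagine synthetase, differed by 0.15 (adjusted p = 0.367).

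One FF mouse stood apart in the chaperones. FF replicate 4 held the highest value of all 10 mice for 14 of the 35 members, 40.0%, while it held the highest value for 10.1% of all genes, and it held the lowest value for none of them. Of the 10 lumenal chaperones 7 were highest in that mouse. The pattern was singled out after the values were seen and was not tested, and it concerns 1 animal.

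Creld2, an ER-stress-induced secreted protein with isomerase-like activity, read 10.33 in FF replicate 4 against 9.39 to 9.54 in the other FF mice and 9.36 to 9.85 in the VV mice. Sdf2l1, a cofactor of BiP, read 9.94 there against 8.98 to 9.63 in the other FF mice and 9.38 to 9.80 in VV. Dnajb9, a BiP co-chaperone that restrains IRE1, read 10.90 against 10.23 to 10.42 and 10.02 to 10.40. In each of these genes that mouse lay above all others. Its excess over the mean of the other FF mice was 0.86 for Creld2, 0.74 for Sdf2l1, 0.58 for Dnajb9, 0.56 for Manf, a secreted protective factor, 0.50 for Hspa5, 0.48 for Derl3 and 0.44 for Hyou1, a nucleotide exchange factor of BiP. An excess of 0.4 log2 units or more was thus met by 7 of 35 members, 20.0%, and by 1.22% of all genes. Dnajb11, another BiP co-chaperone, and Pdia6 were also highest in FF replicate 4, by 0.04 and 0.09 over the next mouse, and of the 9 degradation genes Herpud1, Edem3, Derl2 and Derl3 were. Of the 8 ERSE genes with a value 4 were highest there, Hspa5, Creld2, Pdia6 and Derl3, against 14 of all 35 members. Sdf2l1 and Dnajb9, with the largest excesses after Creld2, had no ERSE match in the window searched. The part of the element in the values of this mouse was not tested.

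The sensors and ATF4 outputs in FF replicate 4 differed from the mean of the other FF mice by 0.21 or less in either direction. That difference was 0.21 for Xbp1, 0.20 for Ddit3 and 0.21 for Chac1, and it was -0.21 for Trib3, -0.18 for Ppp1r15a and -0.04 for Asns. Of the 10 mice FF replicate 4 was highest for Xbp1 and Ddit3, by 0.03 over the next mouse in each. The same mouse had the highest level of the thermogenic adipocyte list, 9.74 against 8.65 to 9.31 in the other FF mice and 6.89 to 7.65 in VV (5 of its 8 genes rose in FF). Of the FF mice it also had the highest B and plasma cell level, 8.54 against 7.43 to 8.17, within the VV range of 8.36 to 8.80. The part of these cells in its chaperone values was not tested. Without this mouse, 9 of the 10 lumenal chaperones had a negative difference between FF and VV, with a median of -0.14 in place of -0.10, and none passed; Hsp90b1 came closest, at -0.28 (limma adjusted p = 0.0652).

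**Figure D3:**
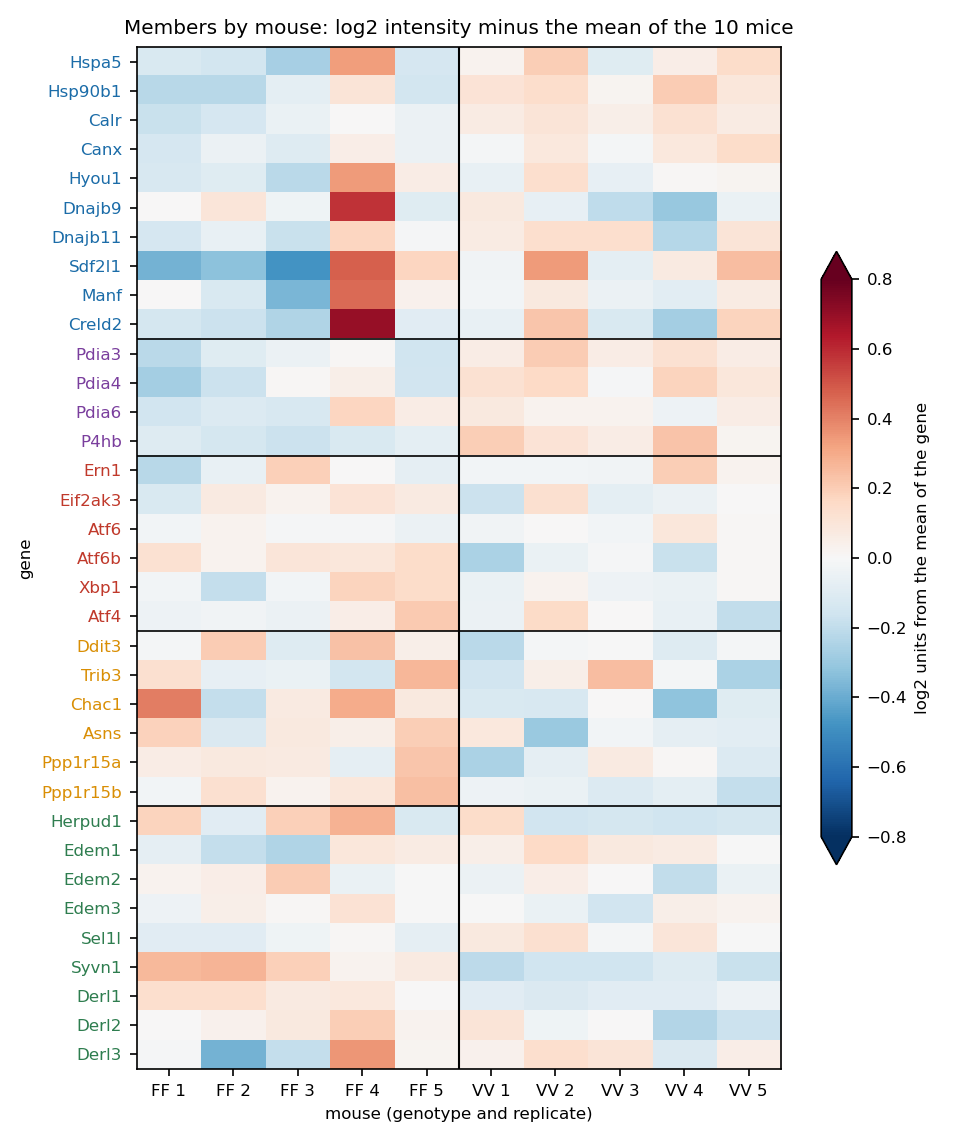
Log2 intensity of the 35 measured members in each mouse minus the mean of the 10 mice for that gene, by colour from -0.8 to 0.8 log2 units (values beyond take the end colour), with gene names coloured by role as in the plot of differences. FF replicate 4 is the red column in the chaperone block, led by Creld2, Sdf2l1 and Dnajb9, and P4hb is blue in every FF mouse and on the red side in every VV mouse.

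**Figure D4:**
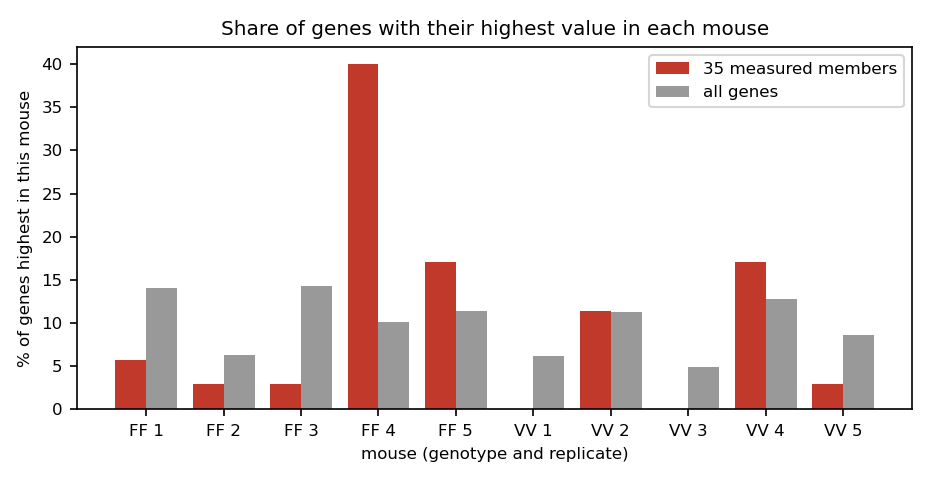
Percent of genes whose highest value of the 10 mice fell in each mouse, for the 35 measured members (red) and all genes (grey). FF replicate 4 holds 40.0% of the members against 10.1% of all genes, while VV replicates 1 and 3 hold none of the members.

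Related genes outside the members were taken from 6 lists chosen by function, with 148 of 165 genes measured. Over the lists together 1 passed the test, 0.68%, close to the background of 0.753%, and the groups did not overlap for 8, or 5.4%, against 4.70% of all genes. The lists were not alike in this. The call and 5 of the 8 separate genes, all higher in FF, came from the cytosolic and mitochondrial chaperones. The other 3, Ddost, Stt3a and Fam8a1, lay lower in FF. None of 25 other ER folding genes passed, with 9 positive and 16 negative differences and a median of -0.05. Txndc11, a thioredoxin-like ER protein, differed by 0.20 and Dnajc10, a reductase of the ER, by -0.14. None of 28 genes of the translocon, signal peptidase and oligosaccharyltransferase passed. Here 13 had a positive and 15 a negative difference, with a median of -0.01. Srprb, a subunit of the signal recognition particle receptor, differed by 0.15 and Sec61a2 by 0.14, both with overlap. Ddost and Stt3a, without overlap, each differed by -0.09. In the other degradation genes, 22 measured, none passed, with 15 positive and 7 negative differences and a median of 0.04. The closest were Ufd1, a cofactor of the extracting ATPase p97, at 0.29 (limma adjusted p = 0.119) and Selenok, a selenoprotein of the ER membrane, at 0.19. Fam8a1, without overlap, differed by -0.08. Of 18 genes in the list of other sensors, proteases and ER-membrane factors none passed, with 8 positive and 10 negative differences and a median of -0.01. Mbtps1, the protease that makes the first cut in ATF6, and Creb3, a related membrane-bound factor, differed by -0.11 and -0.12.

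Among 41 other genes of ATF4 and the integrated stress response none passed. Their differences were positive in 23 and negative in 18, with a median of 0.03. At an unadjusted p under 0.05 there were 4 higher and 5 lower in FF, 22.0% of the list, against 16.4% of all genes (10.2% higher and 6.18% lower). This wider list thus did not show the single direction of the 6 members listed as outputs. Atf3, a stress-induced transcription factor, read 8.11, 9.0, 8.59, 8.85 and 8.56 in FF and 8.95, 9.53, 9.47, 9.74 and 9.03 in VV. Only FF replicate 2 reached above the lowest VV mouse. The difference was -0.72 ± 0.19 (SE, limma adjusted p = 0.0902), opposite in sign to the members listed as ATF4 branch outputs. Psph, which makes serine, differed by 0.19 (adjusted p = 0.146).

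In the list of cytosolic and mitochondrial chaperones 1 of 14 genes rose, Clpp, the protease subunit of the mitochondrial matrix. It read 10.84, 10.76, 10.71, 10.88 and 10.84 in FF and 10.46, 10.35, 10.65, 10.36 and 10.49 in VV, without overlap. The difference was 0.35 ± 0.06 (SE; limma adjusted p = 0.0388); removing FF3 or VV3 kept the call (adjusted p = 0.0293 and 0.0301), and removing any other single mouse lost it (0.0533 to 0.0968). The groups did not overlap for 5 of the 14 genes, or 35.7%, all higher in FF, against 4.70% of all genes (3.36% higher in FF). The thermogenic adipocyte list also lay higher in FF without overlap, at 8.65 to 9.74 against 6.89 to 7.65 in VV, with a median difference of 1.62 over 8 genes. The part of these cells in the differences of the mitochondrial chaperones was not tested.

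**Figure D5:**
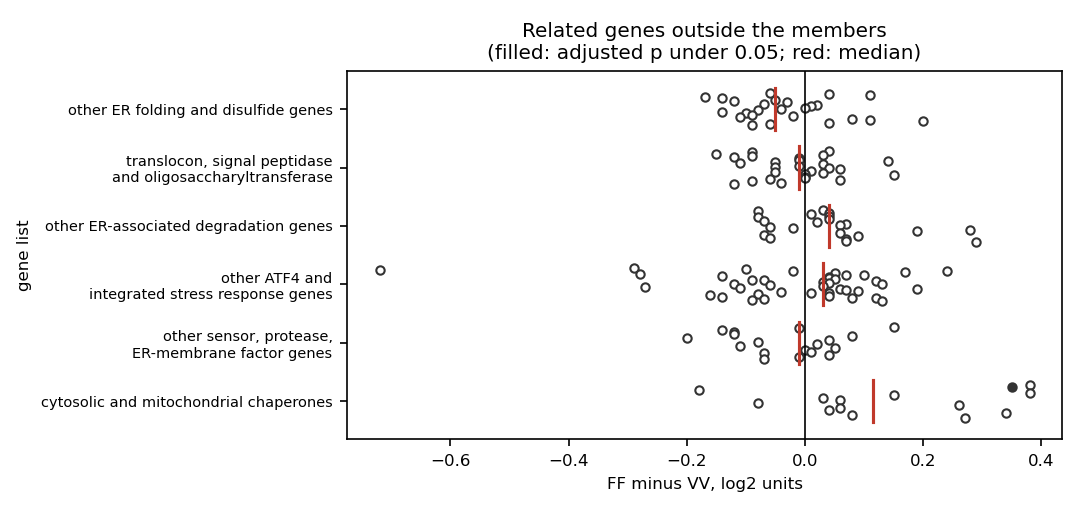
Difference between FF and VV in log2 units for the 148 measured related genes in 6 lists, 1 point a gene, filled where the adjusted p is under 0.05, with the list median in red. Most genes lie close to 0; the filled point is Clpp at 0.35 and the point at the far left is Atf3 at -0.72.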

How the data were processed

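The deposited values are log2 intensities per probe set, which the authors normalised with RMA, per the submitters' processing notes. Its version and the genome build: not given in the sources used here. Of 35557 probe sets, 9868 had no value on any array and were left out. Of the others 20777 named 1 gene, and for 566 genes with more than 1 probe set the brightest on average was used. By gene identifier or accession 20699 of them matched RefSeq, and 2 symbols were updated. Genotypes were compared by limma 3.58.1 under R 4.3.3, as lmFit with eBayes on genotype alone; two-sided p-values were adjusted across 19659 genes by Benjamini-Hochberg and called below 0.05. Each difference is FF minus VV. The limma fit was tested on simulated data. The members, lists and tests were chosen with earlier results of these data known. Every member is named; values of each mouse are given for members past the threshold, the 2 with the smallest p in each role and 8 fixed genes, and for 3 chaperones, by range, chosen after their values were seen. Of the related lists the members past the threshold, or else the 2 with the smallest p, are named, as are the genes without overlap between genotypes. Alternatives covered normalisation, filters, probe set choice, variance model, replicate block and left-out mice. Allele differences under probes were not analysed here.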

Additional observations from a re-analysis of the deposited data

Results flagged for a closer look

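In each group of 5 mice the highest and lowest value of every measured member were compared with the rest, by the gap to the nearest mouse over the range of the group. Of 70 groups 5 held a mouse beyond Dixon's 95% critical value of 0.71; chance gives about 1 in 20 groups. FF replicate 4 lay alone at the top for Hspa5 (12.32, next FF mouse 11.86) and for Creld2 (10.33, next 9.54). VV replicate 4 lay alone at the bottom for Dnajb11 (8.81, next VV mouse 9.10) and alone at the top for Ern1 (9.18, next 9.01). VV replicate 1, in which liver genes were highest, lay alone at the top for Herpud1 (10.70, next VV mouse 10.41); without it Herpud1 differed between FF and VV by 0.24 in place of 0.18 (limma adjusted p = 0.194).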

How the results depend on the processing

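The count of members past the threshold, 1 as reported, was 0 under the replicate block, 0 after quantile normalisation, 0 without FF replicate 1 and VV replicate 1 together, and 0 without VV replicates 1 and 2 together, an alternative chosen after seeing the data. It was 2 (P4hb and Syvn1) without genes below the 25th percentile or below the median of intensity, with probe sets averaged per gene, with an intensity trend and robust settings, and with array weights. It was 3 with arrays centred on their median, where Derl1 passed too, and 4 at an adjusted p of 0.10, where Pdia3 passed with them. Leaving out each mouse gave 0 to 1. In limma fits with 0 called, 9 to 13 members had an unadjusted p under 0.05. The median difference of the members ran from -0.02 to 0.05 without single mice and from -0.01 to 0.06 otherwise. Of the 35 members 28 kept their sign in every setting; Hyou1, Manf, Creld2, Atf6, Xbp1, Trib3 and Derl3, none of them called, did not. Of all genes 601 passed with arrays centred on their median, 95 after quantile normalisation and 5 with the block, against 148. The count of all genes was also above 148 in each setting with 2 members called and at an adjusted p of 0.10. It rose least with probe sets averaged per gene. The added member calls thus came with more calls among all genes. Without single mice the count of all genes ran from 7 (without VV2) to 379 (without FF3), so the background share of calls rests on few mice too; it stayed near 148 only without VV1. Same-numbered mice did not deviate together (correlations from -0.264 to 0.102), so the numbers were not taken as pairs. With the block Syvn1 had an adjusted p of 0.163. The causes of these changes were not tested. The number of arrays and their signal over background, unknown here, limit what small differences can be seen.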

Other observations

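Heat-shock and mitochondrial chaperones, which serve the cytosol and the mitochondrion, were in part also high in FF replicate 4, the mouse with the highest value for 7 of the 10 lumenal ER chaperones. Of 14 measured genes 11 had their highest value there, 78.6%, against 10.1% of all genes. For 6 of the 11 (Hspa8, Trap1, Lonp1, Clpp, Hspa9 and Dnaja3), most of them mitochondrial, the excess over the next mouse was at most 0.08. Hsph1, a cytosolic HSP110, read 9.32 in that mouse against at most 8.78 elsewhere, and Dnajb1, an HSP40 of the heat-shock response, was higher there than in the next mouse by 0.37. Stip1, which couples HSP70 to HSP90, exceeded the next mouse by 0.35 and Hspd1, the mitochondrial HSP60, by 0.26. None of these 4 genes passed between FF and VV. Of the mitochondrial genes, Hspa9, the mitochondrial HSP70, differed by 0.26, Dnaja3, its co-chaperone, by 0.38 and Lonp1, a matrix protease, by 0.34, each without overlap between genotypes (limma adjusted p = 0.0547 to 0.0593), while Hspd1 differed by 0.06. Bag3, a cytosolic co-chaperone, differed by 0.38 without overlap (adjusted p = 0.0545). These genes were singled out after their values were seen.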
